A study of Mus musculus with 6 samples.

Results

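The mouse genes of the DNA replication machinery were followed in neural stem cells (NSCs) with 1 mutant copy of Setd5, a chromatin regulator, and in wild-type (WT) NSCs, both cultured at 21% oxygen. The 44 members were chosen by name, from the origin recognition complex to the enzymes that supply deoxynucleotides, and each was found once among the 52438 genes with values. The comparison was limited to 16266 genes whose mean over all samples reached 10 normalized counts, and all 44 members were among them. The cells were described as primary cortical NSCs, grown adherent on Matrigel with bFGF and EGF, and the Setd5+/- cells had been made with CRISPR-Cas9. The table held 3 samples per genotype, all on 1 WT and 1 mutant sequencing index and lane, and the mutant columns named a single clone, A3.

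Within a genotype the 3 samples differed by no more than sampling noise, with a chi-square per degree of freedom of 0.961 to 0.986 in 6 comparisons, against 34.85 to 34.98 in 9 comparisons between genotypes. The 3 samples of a genotype were therefore averaged and counted as 1 library, so that n was 1 per genotype. Such a design gives no p-value for the genotype, and the genotype cannot be told apart from the clone, the library, the index or the lane. Values are normalized counts, reads on a gene divided by the size factor of the sample, and each log2 ratio sets the mean count plus 1 of the Setd5+/- library over that of the WT library. It is given with a 95% counting interval, covering the error of counting reads and nothing else. The WT library held 30004634 reads on genes and the Setd5+/- library 21435546. Setd5 itself had WT values of 2498, 2749 and 2780 normalized counts and Setd5+/- values of 2151, 1990 and 2055, a log2 ratio of -0.37 (95% counting interval -0.44 to -0.31), and no value overlapped between genotypes. Of the markers checked, all 10 NSC markers passed the filter on low values, and their summed level was 76948 to 77088 in WT and 61538 to 62337 in Setd5+/- samples. Summed levels were 385 to 414 and 81.0 to 90.5 for 6 neuron markers, and 788 to 808 and 1237 to 1397 for 4 astrocyte markers. Of the 10 NSC markers, 2 were at least 1.5-fold lower and 2 higher, and of the 4 astrocyte markers 1 was lower and 3 higher. Of the 6 neuron markers, of which 4 passed the filter, 5 were at least 1.5-fold lower and 0 higher. The log2 ratio of their sums was -2.23. Over all tested genes, 15.5% were at least 1.5-fold lower and 19.7% higher. For 4 microglia markers the sums were 78.6 to 117 and 48.9 to 70.3. Mesenchymal and endothelial markers summed to at most 14.3 and 26.2. Lum, Cx3cr1 and Ptprc were at 0 in all samples. The part of these levels in the results below was not tested.

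Replication starts where the origin recognition complex (ORC) sits on DNA and, with the licensing factors Cdc6 and Cdt1, loads the ring of MCM2 to MCM7, the replicative helicase. Kinases, Cdc45 and the GINS complex then switch the helicase on, primase and polymerase alpha lay primers, and polymerases delta and epsilon copy the strands on the PCNA clamp. Many of these genes are transcribed as cells pass from G1 into S phase, under the E2F family of factors, and dividing neural progenitors express them at high levels.

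Most replication genes were lower in the Setd5+/- library. Of the 44 members, 21 were at least 1.5-fold lower (47.7%), against 15.5% of all tested genes, and 2 were at least 1.5-fold higher, against 19.7% of all tested genes. The counting interval lay wholly below 0 for 32 members (72.7%, background 32.8%), wholly above 0 for 4 (background 32.6%) and spanned 0 for 8. Every Setd5+/- sample was below every WT sample in 31 members (background 32.9%), and above in 4 (background 32.4%). Since the samples of a genotype are parts of 1 library, such separation is not agreement between replicates. The same holds where it is given for single genes below. The median log2 ratio of the members was -0.52, beside -0.02 over all tested genes. In bulk RNA, fewer cells in S phase and less transcript per cell cannot be told apart. The values on either side of the 1.5-fold line were close together, with Cdc7 at -0.59, Rfc3 and Pold1 at -0.60 inside it, and Tyms at -0.55 outside. Leaving out 1 sample at a time, 5 members (Orc1, Orc3, Pold1, Cdc7 and Rfc3) lost their 1.5-fold call in at least 1 setting and 2 (Tyms and Mcm7) gained one. Without the 4 members on chromosome 1 the median was -0.60, and 21 of 40 were at least 1.5-fold lower.

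**Figure D1:**
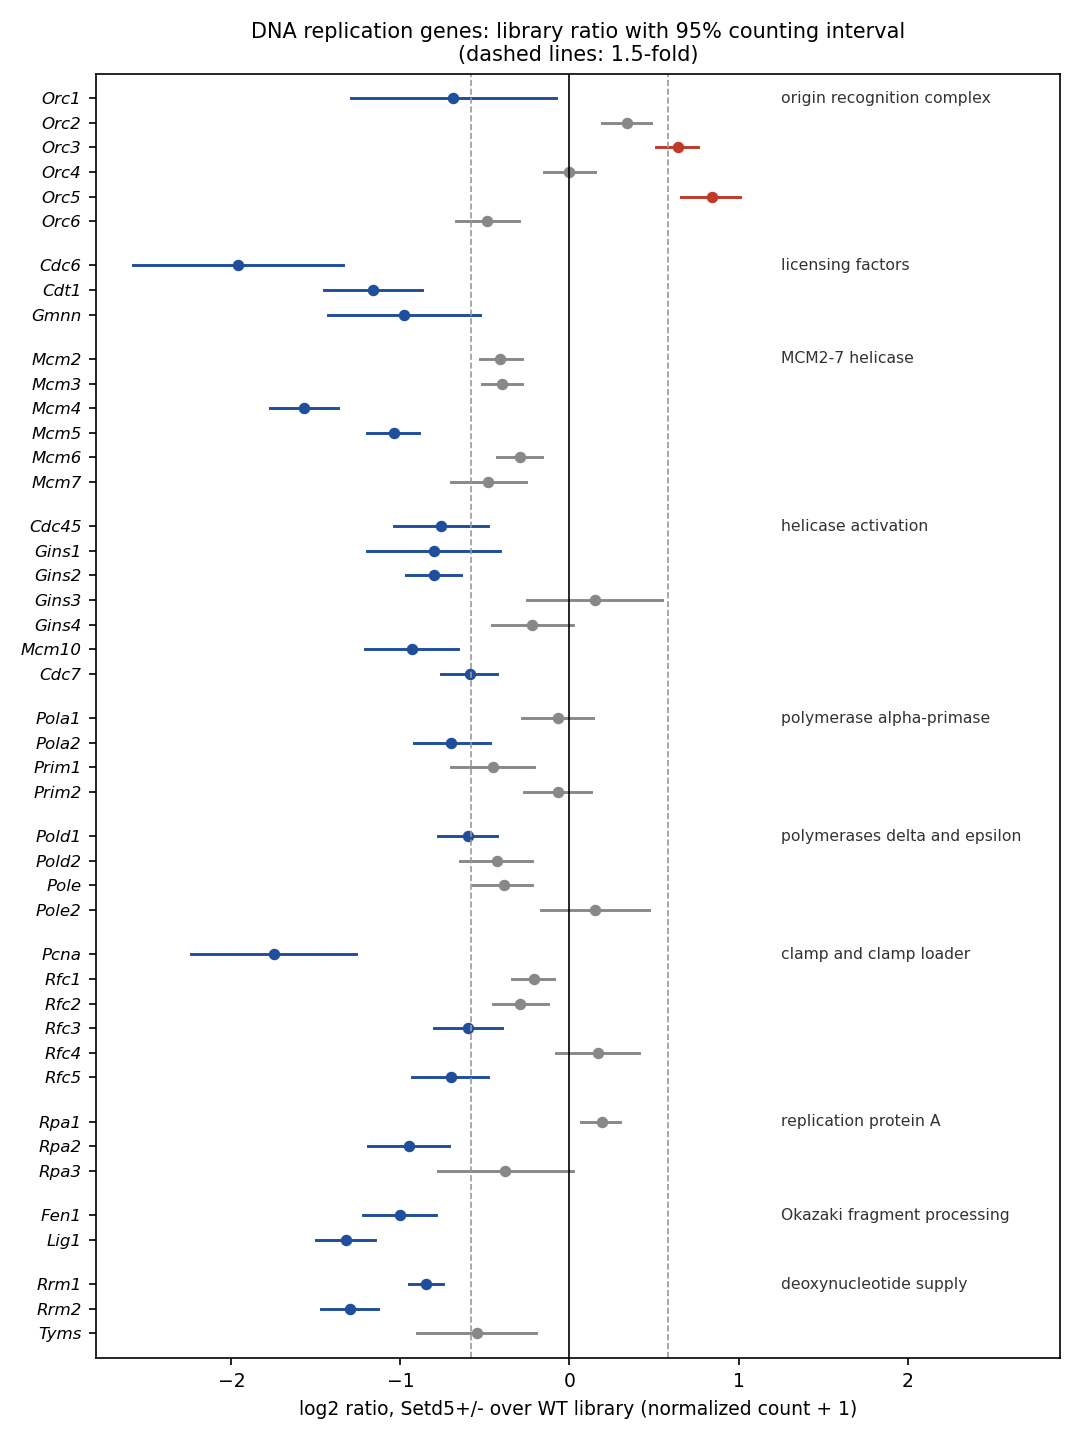
Log2 ratio of the Setd5+/- over the WT library for each of the 44 replication genes, grouped by role, with bars for the 95% counting interval. Blue points are at least 1.5-fold lower (21 genes), red points at least 1.5-fold higher (Orc3 and Orc5), grey points lie between the dashed 1.5-fold lines, and the blue points are spread over all roles.

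The 8 members that were at least 2-fold lower came from licensing (Cdc6, Cdt1), the helicase (Mcm4, Mcm5), the clamp (Pcna), Okazaki fragment processing (Fen1, Lig1) and nucleotide supply (Rrm2). Promoter sequences from RefSeq (GRCm38.p6) were read to show what lies before such genes. Each line holds the 250 bases upstream of the RefSeq start (150 for Cdc6), 5′ to 3′ on the strand of the gene, and capitals mark matches to any of the E2F site letters TTTCCCGC, TTTCGCGC, TTTGCCGC or TTTGGCGC on either strand. For Cdc6, the member with the lowest ratio, the stretch is chr11:98908001-98908150, plus strand. It lies inside the gene as GENCODE draws it, whose first exon begins 350 bases before the RefSeq start. Mcm5 (chr8:75109259-75109508, plus strand) and Mcm6 (chr1:128359706-128359955, minus strand) are the helicase genes with the lowest and the highest ratio among those with an entry, and Rrm2 (chr12:24708004-24708253, plus strand) was 2.46-fold lower and holds no match.
Cdc6: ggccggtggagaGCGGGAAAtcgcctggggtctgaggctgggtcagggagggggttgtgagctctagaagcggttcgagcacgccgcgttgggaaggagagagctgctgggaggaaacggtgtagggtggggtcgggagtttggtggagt
Mcm5: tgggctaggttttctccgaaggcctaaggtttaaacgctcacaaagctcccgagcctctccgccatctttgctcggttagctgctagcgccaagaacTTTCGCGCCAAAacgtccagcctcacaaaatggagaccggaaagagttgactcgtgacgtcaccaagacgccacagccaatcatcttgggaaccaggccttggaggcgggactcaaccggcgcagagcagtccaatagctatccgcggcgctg
Mcm6: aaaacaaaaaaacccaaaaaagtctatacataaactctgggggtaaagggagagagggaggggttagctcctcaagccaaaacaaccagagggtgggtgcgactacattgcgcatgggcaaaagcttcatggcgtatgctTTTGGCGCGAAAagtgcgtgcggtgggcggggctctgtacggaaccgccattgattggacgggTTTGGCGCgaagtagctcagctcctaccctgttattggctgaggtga
Rrm2: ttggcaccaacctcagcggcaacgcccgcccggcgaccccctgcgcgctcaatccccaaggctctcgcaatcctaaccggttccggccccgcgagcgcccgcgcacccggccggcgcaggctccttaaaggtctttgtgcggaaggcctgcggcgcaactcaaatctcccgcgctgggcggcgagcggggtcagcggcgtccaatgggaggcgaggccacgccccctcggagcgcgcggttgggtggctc

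The Cdc6 match began 138 bases before the start. Orc3, which was higher, also held 1 match in its window, which is not shown because it overlaps an exon of the neighbouring gene Rars2. In Mcm5 and Mcm6 the pair of matches on opposite strands overlapped, beginning 153 and 149 bases before the start of Mcm5 and 110 and 106 before that of Mcm6, and Mcm6 held a further one at 47. Windows of 300 bases (250 before to 50 after the start) were given for 36 of the 44 members, 45 windows in all. The E2F letters were in 14 of these (31.1%), against 2.26% of 32817 windows of all genes. They were in 33.3% of the 21 windows of members at least 1.5-fold lower and in 29.2% of the 24 windows of the other members. The letters CCAAT were in 55.6% of the members' windows (37.4% of all windows), and the CHR letters TTTGAA or TTCGAA in 20% (19.2%). The NRF1 site was in 4.44% (0.966%), which is 2 windows of 1 gene, Cdc7. These matches describe the letters of the windows only.

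The genes of ORC, which marks the origins, lay on both sides of 0. The 6 of them had a median log2 ratio of 0.17. Of these, 1 was at least 1.5-fold lower (16.7%, background 15.5%) and 2 higher (background 19.7%). Orc5 (GRCm38, the build of the files and of all positions given here, chr5:22486485-22550429, minus strand) had 251, 271 and 239 normalized counts in WT and 464, 420.4 and 477 in Setd5+/- samples. All Setd5+/- samples were above all WT samples, and the log2 ratio was 0.84 (95% counting interval 0.66 to 1.01), the highest of the members. Orc3 (chr4:34570796-34614944, minus strand) had 461, 508 and 536 normalized counts (WT samples) and 702, 823 and 816 (Setd5+/- samples), again without overlap. Its log2 ratio was 0.64 (95% counting interval 0.51 to 0.76), and without WT replicate 1 it was 0.58, just under 1.5-fold, which left 1 member at least 1.5-fold higher. Orc2 was higher by less, at 0.34 (95% counting interval 0.19 to 0.48), and it lies on chromosome 1, where 1044 tested genes had a median of 0.53. Of the Orc2 exon bases, 29.8% are shared with Nif3l1 on the other strand, which was at 0.13 (95% counting interval -0.01 to 0.27). Orc4 had WT values of 445, 510.4 and 455 normalized counts and Setd5+/- values of 460, 450.1 and 500.3, samples of both genotypes were mixed, and the ratio was 0.00 (95% counting interval -0.15 to 0.15). Orc6 was lower at -0.49 (95% counting interval -0.67 to -0.30). Orc1, the subunit whose level is known to follow the cell cycle, had the lowest mean count of the members, with 44.8, 31.4 and 33.1 normalized counts in WT and 15.5, 35.7 and 15.5 in Setd5+/- samples. Among the mutant samples, 1 reached the WT range, and the log2 ratio was -0.69 (95% counting interval -1.29 to -0.08), from 132 and 56 reads. With so few reads the 1.5-fold call of Orc1 was not stable. Its ratio was -0.52 without WT replicate 1, -0.49 without Setd5+/- replicate 1 or 3, and -1.18 without Setd5+/- replicate 2. These values all lie inside the counting interval.

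All 3 licensing genes were at least 1.5-fold lower (background 15.5%). Cdc6 (chr11:98907801-98923940, plus strand), which loads the helicase with Cdt1, had 91.2, 43.0 and 73.7 normalized counts (WT samples) and 19.1, 17.9 and 14.3 (Setd5+/- samples). The lowest WT sample was still more than any mutant sample, and the log2 ratio was -1.96 (95% counting interval -2.58 to -1.34). Cdt1 (chr8:122568015-122573554, plus strand) had WT values of 209.8, 245 and 191 normalized counts and Setd5+/- values of 91.8, 86.9 and 108. No mutant sample reached the WT range, and the log2 ratio was -1.16 (95% counting interval -1.45 to -0.87). Gmnn, which encodes the Cdt1 inhibitor geminin, had 69.7, 77.8 and 85.3 normalized counts in WT and 41.7, 41.7 and 33.4 in Setd5+/- samples. Its log2 ratio was -0.98 (95% counting interval -1.43 to -0.53).

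The 6 genes of the MCM2-7 ring were all lower, with intervals wholly below 0 (background 32.8%), but not to the same degree. Mcm4 (chr16:15623897-15637400, minus strand) had 503, 589 and 558 normalized counts (WT samples) and 191, 177 and 186 (Setd5+/- samples). The highest mutant sample was far below the lowest WT sample, and the log2 ratio was -1.57 (95% counting interval -1.77 to -1.37). Mcm5 (chr8:75109569-75128439, plus strand) had WT values of 721, 746 and 713 normalized counts and Setd5+/- values of 372, 355 and 329. The groups were far apart, with a log2 ratio of -1.04 (95% counting interval -1.20 to -0.89). The other 4 were between -0.48 (Mcm7) and -0.29 (Mcm6), and their intervals did not overlap those of Mcm4 or Mcm5. Mcm6 had 611, 640.3 and 604 normalized counts in WT and 514, 472 and 528 in Setd5+/- samples. Mutant samples were all below the WT samples, by a log2 ratio of -0.29 (95% counting interval -0.43 to -0.16). Mcm3 and Mcm6 lie on chromosome 1, with log2 ratios of -0.40 and -0.29 beside the median of 0.53 of that chromosome. Levels per kb of exon ran from 61.5 (Mcm7) to 221 (Mcm3) normalized counts in WT and from 44.1 to 168 in Setd5+/-. The highest over the lowest was 3.60 and 3.81. Such levels compare genes only roughly, since the length took in all annotated exons of a gene. Reads across introns, or shared with a near-identical pseudogene, may also be lost to a degree that differs by gene. Mcm7 is among the members with such a pseudogene. Mcm4 stood at 153 per kb in WT, above Mcm2, Mcm6 and Mcm7, and at 51.5 in Setd5+/-, above Mcm7 alone. In ORC, Orc1 was lowest in both libraries (10.5 and 6.39 per kb), while the highest was Orc6 in WT (149) and Orc2 in Setd5+/- (136).

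**Figure D2:**
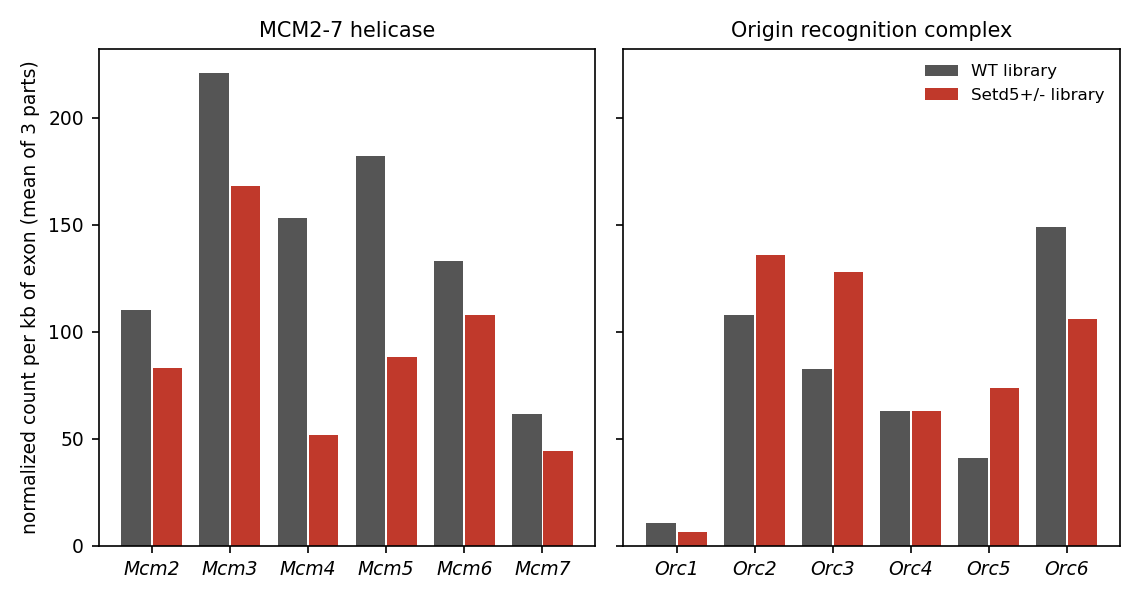
Normalized count per kb of exon (mean of the 3 parts of a library) for the MCM2-7 and ORC genes, in grey for WT and red for Setd5+/-. All 6 MCM bars are shorter in Setd5+/-, most of all Mcm4 (153 against 51.5), whereas Orc2, Orc3 and Orc5 are taller.

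Genes that switch the helicase on were mostly lower, 5 of 7 by at least 1.5-fold (71.4%, background 15.5%), with a median log2 ratio of -0.76. Mcm10, needed to start unwinding, had 203, 208 and 224 normalized counts (WT samples) and 83.4, 124 and 124 (Setd5+/- samples), and the log2 ratio was -0.93 (95% counting interval -1.21 to -0.66). Cdc45, a partner of the ring in the active helicase, had WT values of 171, 201 and 186 normalized counts and Setd5+/- values of 128, 113 and 88.2, with a log2 ratio of -0.76 (95% counting interval -1.04 to -0.48). Neither gene had a mutant sample within the WT range. The 4 GINS genes split. Gins1 and Gins2 were at -0.80 (95% counting interval -1.20 to -0.41) and -0.80 (95% counting interval -0.97 to -0.64), whereas Gins3 and Gins4 were at 0.15 (95% counting interval -0.25 to 0.55) and -0.22 (95% counting interval -0.46 to 0.02), with samples of both genotypes mixed. Cdc7, the kinase that phosphorylates the ring, was at -0.59 (95% counting interval -0.76 to -0.43), while Dbf4, which activates Cdc7 and stands outside the 44, had 436, 405 and 427 normalized counts in WT and 685, 692 and 712 in Setd5+/- samples. Dbf4 was thus higher without overlap, with a log2 ratio of 0.72 (95% counting interval 0.58 to 0.86).

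In the polymerase alpha-primase complex, 1 of 4 genes was at least 1.5-fold lower (25.0%, background 15.5%). Pola2, the regulatory subunit of polymerase alpha, had 309, 267 and 291 normalized counts (WT samples) and 169, 166 and 199 (Setd5+/- samples), a log2 ratio of -0.70 (95% counting interval -0.92 to -0.47). The catalytic subunit Pola1 had WT values of 246, 224 and 236 normalized counts and Setd5+/- values of 249, 219 and 205, with mixed samples and a log2 ratio of -0.07 (95% counting interval -0.28 to 0.14). Prim1, the catalytic subunit of primase, was at -0.45 (95% counting interval -0.70 to -0.21) and its partner Prim2, on chromosome 1, at -0.07 (95% counting interval -0.27 to 0.13). Among the leading and lagging strand polymerases, Pold1 and Pole are the catalytic subunits of delta and epsilon, and their log2 ratios were -0.60 (95% counting interval -0.78 to -0.43) and -0.39 (95% counting interval -0.57 to -0.22). Pold2 was at -0.43 (95% counting interval -0.65 to -0.22), and Pole2 at 0.15 (95% counting interval -0.17 to 0.47), its samples mixed.

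Pcna, the sliding clamp, had the second lowest ratio of the 44. The gene (chr2:132249162-132253314, minus strand) had 105, 113 and 85.3 normalized counts in WT and 23.8, 16.7 and 47.6 in Setd5+/- samples. The third mutant sample was well above the other two, yet below every WT sample. The log2 ratio was -1.75 (95% counting interval -2.24 to -1.26), and -2.27 without that sample. A processed pseudogene on chromosome 19, Pcna-ps2, matches Pcna over its 781 bases at 99.23% identity. Pcna-ps2 had 1003, 1004 and 992 normalized counts (WT samples) and 403, 391 and 397 (Setd5+/- samples), far more than Pcna itself in either genotype. Its log2 ratio was -1.33 (95% counting interval -1.47 to -1.19), and that of both rows summed was -1.37 (95% counting interval -1.50 to -1.23). Which part of the Pcna-ps2 level came from Pcna transcripts was not tested. Of the clamp loader subunits, Rfc5 (-0.70 (95% counting interval -0.93 to -0.48)) and Rfc3 (-0.60 (95% counting interval -0.80 to -0.40)) were at least 1.5-fold lower. Rfc5 summed with its near-identical copy Gm12870 was at -0.55 (95% counting interval -0.74 to -0.37), which is short of 1.5-fold. Rfc1, the large subunit, and Rfc2 were lower by less, at -0.21 (95% counting interval -0.34 to -0.09) and -0.29 (95% counting interval -0.45 to -0.13), and Rfc4 was at 0.17 (95% counting interval -0.08 to 0.41) with mixed samples.

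Single-stranded DNA is covered by replication protein A, made of 3 subunits, and these did not go together. Rpa1 had WT values of 739.7, 803 and 734 normalized counts and Setd5+/- values of 819, 911 and 863, all mutant samples being higher, at 0.19 (95% counting interval 0.07 to 0.30). Rpa2 had 275, 291 and 269 normalized counts in WT and 157, 152 and 122 in Setd5+/- samples, all mutant samples being lower, at -0.95 (95% counting interval -1.19 to -0.71). Rpa3 was at -0.38 (95% counting interval -0.78 to 0.02), with 1 mutant sample inside the WT range. Its near-identical copy Gm6195 had more counts, with means of 134.5 in WT and 86.6 in Setd5+/-, against 73.7 and 56.4 for Rpa3. The log2 ratio of both rows summed was -0.54 (95% counting interval -0.79 to -0.29). Which part of the Gm6195 level came from Rpa3 transcripts was not tested. Per kb of exon, with the limits given for the MCM genes, the WT library had 136 of Rpa1, 93.1 of Rpa2 and 64.9 of Rpa3. The Setd5+/- library had 155, 48.0 and 49.6.

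Both genes of Okazaki fragment processing were at least 2-fold lower, against 6.14% of all tested genes. Fen1, the flap endonuclease (chr19:10199132-10204169, minus strand), had 343, 344 and 379 normalized counts (WT samples) and 191, 137 and 203 (Setd5+/- samples). No sample overlapped, and the log2 ratio was -1.0 (95% counting interval -1.22 to -0.79). Of its exon bases, 78.8% are shared with a transcript on the other strand, Gm10143, which had WT values of 316, 328 and 369 normalized counts and Setd5+/- values of 185, 137 and 198. The sample-by-sample values of the pair were nearly the same, so that the reads of one cannot be told from those of the other. Gins2 had 569, 548 and 531 normalized counts in WT and 329, 301 and 313 in Setd5+/- samples, and likewise shares 67.3% of its exon bases with Gse1 on the other strand, which was at -0.49 (95% counting interval -0.64 to -0.35). Lig1, the ligase that seals the fragments (chr7:13277283-13311433, plus strand), had 642, 639 and 738 normalized counts (WT samples) and 253, 311 and 241 (Setd5+/- samples). Its log2 ratio was -1.32 (95% counting interval -1.50 to -1.15), with a clear gap between the groups.

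**Figure D3:**
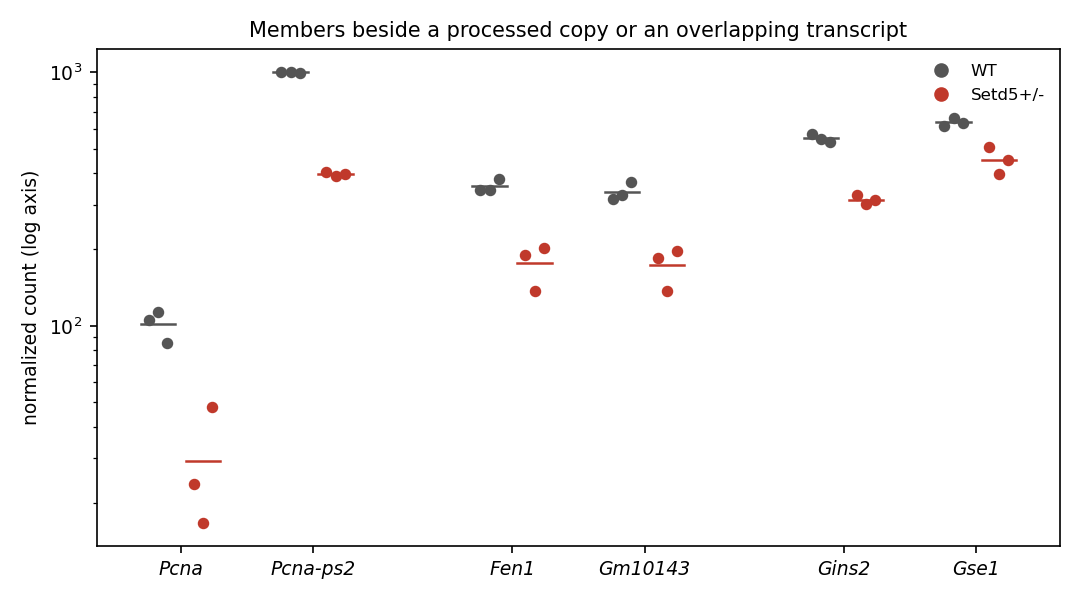
Normalized counts (log axis) of Pcna, Fen1 and Gins2 beside a processed copy (Pcna-ps2) or a transcript on the opposite strand (Gm10143, Gse1), 3 WT parts in grey and 3 Setd5+/- parts in red, with lines for the means. Pcna-ps2 lies well above Pcna in both libraries (WT means 999.4 and 101), and Fen1 and Gm10143 lie at nearly the same levels (WT means 355 and 338).

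Near-identical pseudogenes (at least 90% identity over at least 80% of the pseudogene) were found for 8 members: Cdc6, Mcm7, Pcna, Rfc2, Rfc5, Rpa3, Rrm2 and Tyms. Among the other 36, 17 were at least 1.5-fold lower and the median log2 ratio was -0.47. The copy of Cdc6, Gm9430, had means of 39.8 and 9.53 normalized counts, and the sum of both rows had a log2 ratio of -2.00. Members with 10% or more of their exon bases in another gene numbered 7: Orc1, Orc2, Gins2, Rfc2, Rfc4, Rfc5 and Fen1. Of the 31 members with neither feature, 14 were at least 1.5-fold lower and 2 higher.

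Deoxynucleotides were served by 3 members. Rrm1, the large subunit of ribonucleotide reductase, had the highest count of the members, with WT values of 1381, 1497 and 1554 normalized counts and Setd5+/- values of 790.2, 857 and 810. The log2 ratio was -0.85 (95% counting interval -0.95 to -0.75), the narrowest interval of the members. Rrm2 (chr12:24708241-24714146, plus strand), the small subunit, which is known to accumulate in S phase, had 711, 657 and 681 normalized counts in WT and 286, 258 and 286 in Setd5+/- samples. Its log2 ratio was -1.30 (95% counting interval -1.47 to -1.13), below that of Rrm1 and without overlap of their intervals. Tyms, thymidylate synthase, was at -0.55 (95% counting interval -0.90 to -0.20).

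**Figure D4:**
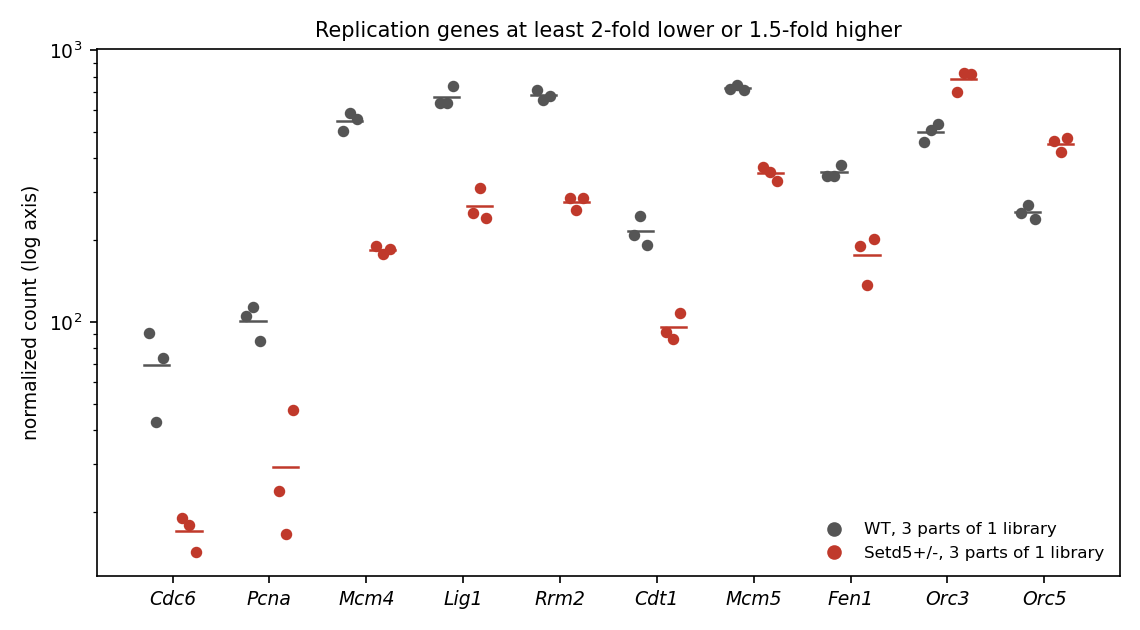
Normalized counts (log axis) in the 3 WT parts (grey) and 3 Setd5+/- parts (red) of the 8 members at least 2-fold lower and the 2 at least 1.5-fold higher, with lines for the means. The genes were picked by their ratios, and the groups are apart in all 10. Over all tested genes, 32.9% had every Setd5+/- sample below every WT sample, and 32.4% had every one above. The mutant parts of Pcna spread from 16.7 to 47.7.

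Lists of other cell cycle genes were set beside the members. Of 39 further replication genes, 16 were at least 1.5-fold lower (41.0%, background 15.5%) and 1, Dbf4, was higher, with a median log2 ratio of -0.52, the value of the members. The lowest was Chaf1b, of the chromatin assembly factor that follows the fork, with 211, 198 and 192 normalized counts (WT samples) and 53.6, 42.9 and 54.8 (Setd5+/- samples), a log2 ratio of -1.97 (95% counting interval -2.34 to -1.60). Of 18 E2F, RB and MYB factors, 4 were at least 1.5-fold lower (22.2%, background 15.5%) and 1 higher. E2f1 had WT values of 151, 153 and 132 normalized counts and Setd5+/- values of 73.9, 70.3 and 83.4, clearly lower at -0.93 (95% counting interval -1.26 to -0.60). E2f2, the lowest of the list, had 85.4, 86.9 and 98.5 normalized counts in WT and 19.1, 35.7 and 25.0 in Setd5+/- samples, a log2 ratio of -1.73 (95% counting interval -2.24 to -1.21). Tfdp2, which encodes a dimerization partner of E2F proteins, was the highest, with 514, 496 and 542 normalized counts (WT samples) and 993, 878 and 984 (Setd5+/- samples) and a log2 ratio of 0.88 (95% counting interval 0.76 to 1.00). Of 13 S phase cyclins and checkpoint genes, 3 were at least 1.5-fold lower (23.1%, background 15.5%) and none higher (background 19.7%). Their median log2 ratio was -0.10, with 4 intervals wholly below 0 and 3 wholly above it. Ccne2, a cyclin of S phase entry, had WT values of 175, 179 and 171 normalized counts and Setd5+/- values of 53.6, 48.8 and 56.0, a log2 ratio of -1.71 (95% counting interval -2.08 to -1.34). Wee1, an inhibitory kinase, was the highest of that list at 0.37 (95% counting interval 0.17 to 0.57).

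The mitotic markers lay on the other side. Of 15, none was at least 1.5-fold lower (background 15.5%) and 4 were at least 1.5-fold higher, a share not far above the background of 19.7%. The interval lay wholly above 0 for 12 (background 32.6%), and the median log2 ratio was 0.51. Cenpe, a centromere motor protein, had 352, 358 and 360.2 normalized counts in WT and 949, 968 and 951 in Setd5+/- samples. It was the highest of the list, at 1.42 (95% counting interval 1.28 to 1.55). Cdk1, the mitotic kinase, was the lowest, at -0.11 (95% counting interval -0.25 to 0.02), with mixed samples. In the same 300-base windows, the E2F letters were in 7.14% of the 14 windows of mitotic markers, the CCAAT letters in 92.9% and the CHR letters in 78.6%, against 31.1%, 55.6% and 20% for the members. No test was made between these lists.

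**Figure D5:**
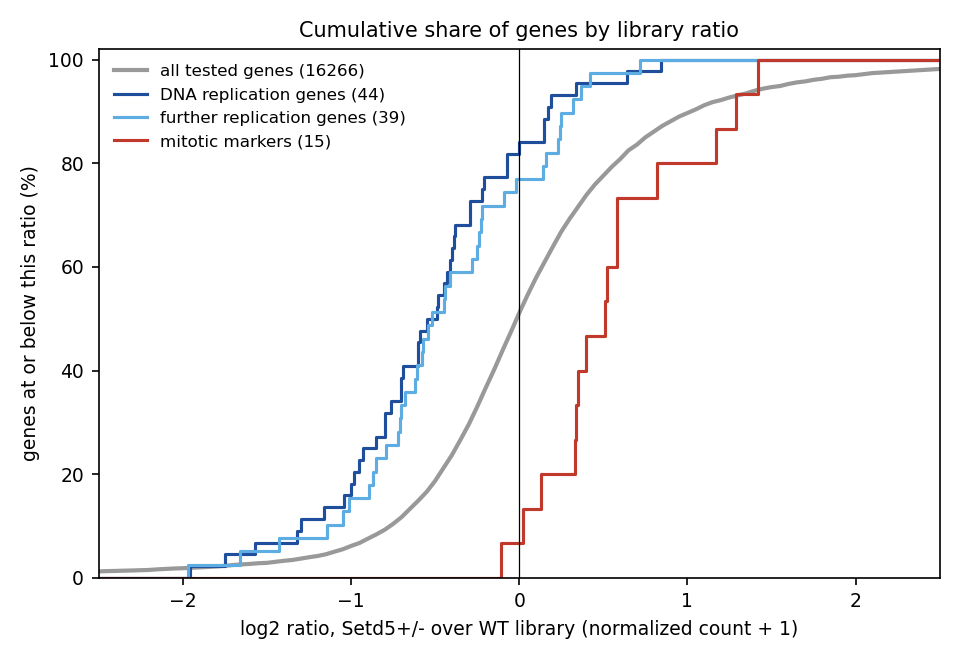
Cumulative percentage of genes at or below each log2 ratio (Setd5+/- over WT library) for all 16266 tested genes (grey), the 44 members (dark blue), 39 further replication genes (light blue) and 15 mitotic markers (red). Over most of the range both replication curves lie left of the curve of all genes (medians -0.52, -0.52 and -0.02), and the mitotic curve lies right of it (median 0.51).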

How the data were processed

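Total RNA of adherent NSCs was sequenced in pairs with a TruSeq RNA v2 kit, which keeps no strand. The authors trimmed reads with Trimmomatic, aligned them with Bowtie2, which does not split reads across introns, to mm10, and divided the counts per gene by DESeq2 size factors; the counting program is not given in the sources used here. The deposited values (unit: other, normalized counts) had lost their decimal points. These were restored from the whole-read steps and the deposited mean, leaving 0 of 52438 genes unmatched, and another 672 of 53110 genes had no values. One read was worth 0.8273 to 0.8292 in WT and 1.1909 to 1.1918 in Setd5+/- samples. The deposited fold changes, p-values and adjusted p-values were not used.

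The ratio was log2((Setd5+/- mean + 1)/(WT mean + 1)), for genes whose mean reached 10 normalized counts, and a fold understates low genes. Intervals used a variance over mean of 1.94, estimated within genotypes, since both reads of a pair were counted. The restoration, the ratio and the intervals were tested on simulated data. Members, lists and tests were chosen with earlier results of these data known. All members, Setd5, E2f1 and, per list, the genes with the largest fall and rise (mean of 50 or more) could be named; Gm10143, Gse1, Pcna-ps2 and other copies or neighbours were named for their position. Exons and starts came from GENCODE M21 (GRCm38), copies from blastn 2.17.0+. Alternatives used limma 3.58.1 and mgcv 1.9.3 in R 4.3.3. The oligodendrocyte marker list is not reported here.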

Additional observations from a re-analysis of the deposited data

How the results depend on the processing

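The counts of members at least 1.5-fold lower (21) and higher (2), with intervals below 0 (32) and above 0 (4), and the median log2 ratio (-0.52) were recomputed under other scalings, pseudocounts, a length and GC trend, and subsets of members. Under scaling to total reads they were 22, 2, 34, 4 and -0.56, and centred on genes outside chromosome 1 they were 18, 2, 32, 4 and -0.48. With a fold of 2, 8 were lower and 0 higher. Leaving out 1 sample at a time gave 19 to 21 lower, 1 to 2 higher (1 without WT replicate 1, when Orc3 stood at 0.58), 31 to 33 intervals below 0, 4 above 0, and medians of -0.54 to -0.48. Of 528 single-member values over 12 settings, 2 moved by more than the half-width of their interval (Pcna to -2.27 without Setd5+/- replicate 3, Rrm1 to -0.95 with the length and GC trend), and none changed sign beyond it. Setd5 ranged from -0.48 to -0.33. Leaving out members with a near-identical pseudogene, or with shared exons, was chosen after seeing the data and left 17 lower in each case.

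The replicate numbers do not pair the samples, as each numbers parts of 1 library: deviations of same-numbered samples correlated at 0.001, -0.015 and -0.012 over genes. limma, treating the parts as replicates, put 32 members lower and 4 higher at an adjusted p under 0.05 with the replicate block and likewise without it, but 61.1% and 61.3% of all tested genes passed. A count test on the reads was not run. At these depths the half-width of a member's interval was 0.21 on the log2 scale (median), down to 0.10 for Rrm1. Differences for the 8 members whose interval spanned 0 were not detectable in their own rows.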

Other observations

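Among the 44, 9 members start at most 659 bases from the start of a gene on the opposite strand. These neighbours did not always go with them, and whether a pair shares a promoter was not tested. The start of Prkdc, which encodes a DNA repair kinase, lies 466 bases from that of Mcm4. Prkdc had means of 237 normalized counts in the WT and 347 in the Setd5+/- library, a log2 ratio of 0.54 (95% counting interval 0.36 to 0.73), while Mcm4 was at -1.57. Rars2, a mitochondrial arginyl-tRNA synthetase gene, starts 13 bases from Orc3, and the pair was higher together, at 0.57 (interval 0.37 to 0.76) and 0.64. The log2 ratio of Prpf38a, 87 bases from Orc1, was -0.48, beside -0.69 for Orc1. For Gins1 and Abhd12, 659 bases apart, the values were -0.80 and -0.20. Of all 10 such neighbours (protein-coding, of 9 members), 6 lay on the same side of 0 as the member and 4 on the other side. None was past 1.5-fold in either direction, where 15.5% of all tested genes were lower and 19.7% higher. The other 3 on the opposite side were Vps35 (0.07, beside -0.49 for Orc6), Smyd4 (-0.29, beside 0.19 for Rpa1) and Gm45062. Gm45062 was at 0.30, beside -0.38 for Rpa3, and Tmem258, beside Fen1, was at -0.14. The side was not settled for all: the intervals of Vps35 (-0.00 to 0.15), Smyd4 (-0.62 to 0.03) and Tmem258 (-0.40 to 0.12) spanned 0. So did those of Pxmp2, beside Pole (-0.66 to 0.13), and Umad1, beside Rpa3 (-0.50 to 0.28). The interval of Rpa3 itself, the member beside both Umad1 and Gm45062, also spanned 0 (-0.78 to 0.02). These neighbours were chosen by position after the data were seen, and no test was made.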
